A study of Rattus norvegicus and Mus musculus with 18 samples.

Results

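Integrins and laminins are the receptors and ligands by which cells hold on to a basement membrane, and their chain genes in the mouse table are described here. Members were the protein-coding genes whose symbol starts with Itga, the genes Itgb1 to Itgb8, and the symbols Lama, Lamb or Lamc followed by 1 digit. This gave 37 genes of 49548 in the table: 18 integrin alpha, 8 integrin beta, 5 laminin alpha, 3 laminin beta and 3 laminin gamma chains. They were compared between 3 libraries of wound epidermis and 3 of wound dermis from adult mice, out of 18 libraries in a series that also covers rat skin. All 6 libraries came from whole pieces of skin wound tissue taken 1 day after the scab came off, with no treatment, transgene or allele named for either tissue. The labels name no strain or sex, and nothing says that the 3 libraries of a tissue came from separate animals. A p-value here therefore weighs a difference against library-to-library spread alone, which may be technical.

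An integrin is a pair of 1 alpha and 1 beta chain that spans the cell membrane, and the pairing sets which matrix protein it holds. A laminin is a cross-shaped trimer of 1 alpha, 1 beta and 1 gamma chain, named by its chain numbers, and it is secreted into the basement membrane between epidermis and dermis and around vessels, muscle and nerve. Basal keratinocytes are anchored through the integrin of Itga6 and Itgb4, the receptor of the hemidesmosome, to a laminin of the epithelium that contains Lama3 and Lamb3. Integrins with Itgb6 or Itgb8 release active TGF-beta from its latent complex, and those with Itgb2 or Itgb7 are carried by leukocytes.

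Values are TPM, the unit in which a gene's transcripts are given as a share of the library's total, and are scaled for gene length, so levels of different genes can be set side by side within a library. The tissues matched their labels by marker genes, with keratinocyte transcripts also present in dermis. The 7 fibroblast markers, led by type I collagen, summed to 44102 to 68603 TPM in dermis and 9.79 to 104 TPM in epidermis. The 5 markers of differentiating keratinocytes summed to 33745 to 80367 TPM in epidermis, 284 to 466 TPM in wound dermis replicates 1 and 3, and 12980 TPM in wound dermis replicate 2. The 4 basal keratinocyte markers (Krt5, Krt14, Krt15 and Trp63) summed to 6667 to 17560 TPM in epidermis, lowest in replicate 2, and to 1826, 3315 and 234 TPM in dermis replicates 1, 2 and 3. Whether cells of one type were fewer or held less of an RNA cannot be told apart in such bulk tissue.

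The data showed 2 patterns among the members. Most chains were lower in epidermis: of the 31 members that reached 1 TPM in 3 or more libraries, 21 were lower, 2 were higher (Itgb6 and Lamb3) and 8 did not pass a limma adjusted p of 0.05. Over all 15982 genes tested, 39.3% were lower, 17.0% were higher and 56.3% were called in either direction, so a larger share of the tested members than of all genes was lower. The hemidesmosome integrin chains Itga6 and Itgb4 and the epithelial laminin chains Lama3 and Lamb3 were not among the lower genes, and all 4 had a higher mean in epidermis, with Lamb3 alone past the threshold. Log2 fold changes are of TPM + 1, epidermis minus dermis, with the standard error (SE) of the fit. Their median over the 31 tested members was -1.67, against -0.42 over all tested genes. The median of all genes was -0.17 under median-of-ratios scaling, with 3 members higher and 19 lower beside 23.5% and 33.6% of all genes, and 0.04 under quantile normalization, with 4 members higher and 18 lower beside 28.5% and 27.9%. In 23 of the 31 the libraries of the groups did not overlap, and this held for 66.0% of all tested genes.

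**Figure D1:**
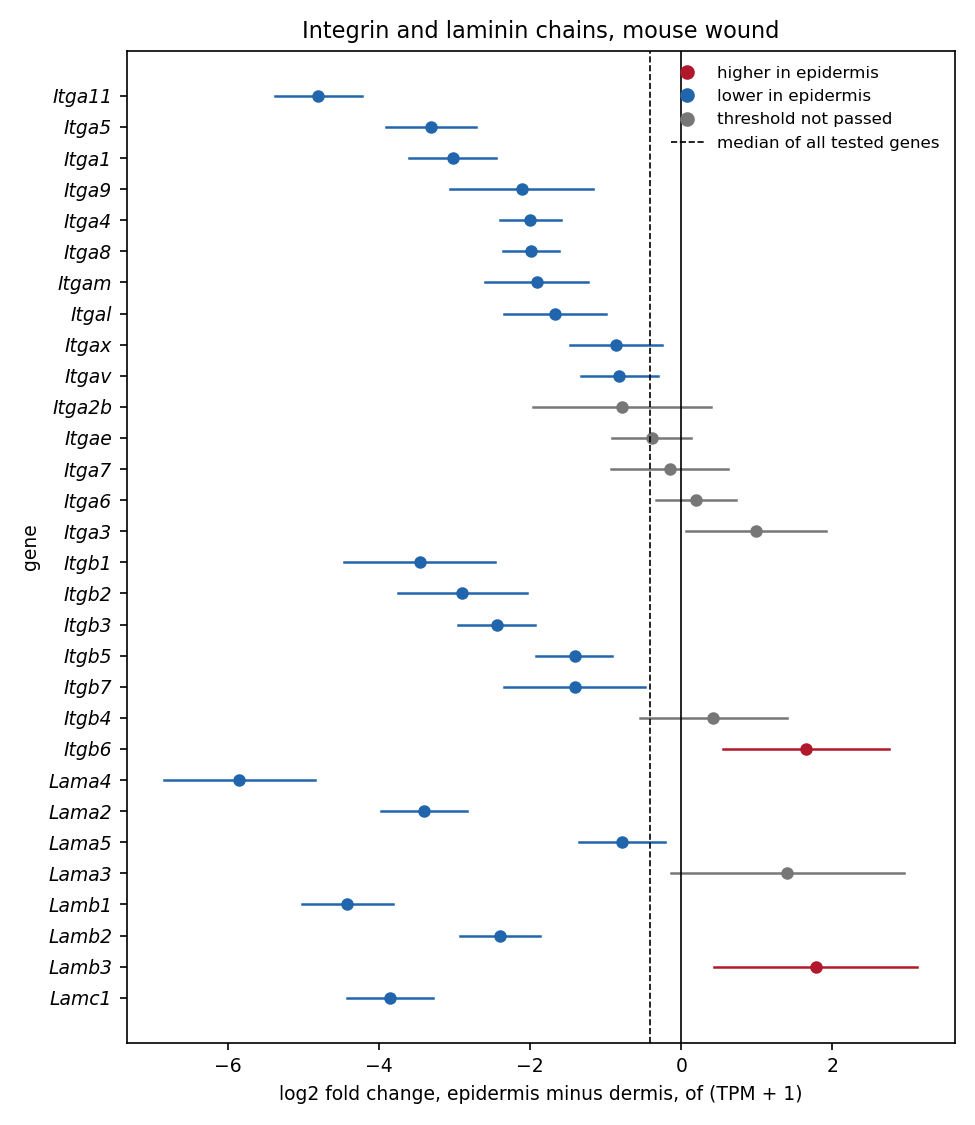
Log2 fold change (points) with 95% confidence interval (lines) for 30 of the 31 tested members, ordered within each chain class. Blue genes were lower and red genes higher in epidermis, grey genes did not pass the threshold, and the dashed line marks the median of all tested genes at -0.42.

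Among the beta chains, Itgb1 was lower in epidermis while Itgb4 did not pass. Itgb1, which pairs with the largest number of alpha chains, stood at 208, 141 and 174 TPM in dermis replicates 1, 2 and 3 and at 15.3, 7.49 and 26.9 TPM in epidermis. No epidermis library came near any dermis library, and Itgb1 fell by 3.46 ± 0.42 (SE, limma adjusted p = 0.00056, n = 3 each). Itgb4, the hemidesmosome beta chain, stood at 13.3, 12.3 and 6.85 TPM in dermis and 15.4, 7.93 and 23.4 TPM in epidermis. These ranges overlapped, and the log2 fold change of 0.42 had a 95% confidence interval from -0.55 to 1.40 (adjusted p = 0.41). Within a library, Itgb1 was 15.6, 11.4 and 25.4 times as abundant as Itgb4 in dermis, and 0.994, 0.945 and 1.15 times in epidermis. The Itgb1 gene lies on mm10 chromosome 8 from 128685654 to 128733200 and Itgb4 on chromosome 11 from 115974709 to 116008412.

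Itgb6, an epithelial chain that pairs with Itgav, stood at 6.19, 7.82 and 8.02 TPM in epidermis and 1.97, 3.91 and 0.27 TPM in dermis. All 3 epidermis libraries lay above all 3 dermis libraries, and Itgb6 rose by 1.65 ± 0.47 (adjusted p = 0.020). Its adjusted p was 0.059 without wound epidermis replicate 2, 0.0525 without wound epidermis replicate 3, and 0.0503 without the filter on low values. Itgb8, the other activator of TGF-beta, did not exceed 1.46 TPM in any library and was not tested. Itgb5, a vitronectin receptor chain, stood at 124, 102 and 152 TPM in dermis and 46.2, 41.4 and 51.4 TPM in epidermis. It fell by 1.41 ± 0.22 (adjusted p = 0.0015), yet it was the most abundant beta chain of every epidermis library.

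Itgb3, the beta chain of platelets, angiogenic endothelium and osteoclasts, stood at 3.85, 4.14 and 6.61 TPM in dermis and at no more than 0.07 TPM in any epidermis library, and fell by 2.44 (adjusted p = 0.00013). Itgb2, the leukocyte chain, fell by 2.90 from 12.0 to 29.2 TPM in dermis to 1.19 to 2.75 TPM in epidermis (adjusted p = 0.00063). Itgb7, which lymphocytes use to home to and stay in epithelia, fell by 1.41 (adjusted p = 0.019) with 0.86 to 3.71 TPM left in epidermis. The Itgb7 call was lost without wound dermis replicate 3 (adjusted p = 0.062), wound epidermis replicate 1 (0.064) or wound epidermis replicate 2 (0.061), and under quantile normalization (-0.73, adjusted p = 0.13).

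As shares of the summed beta-chain TPM, Itgb1 made up 55.2%, 50.0% and 45.8% in dermis replicates 1, 2 and 3 and 17.7%, 11% and 23.0% in epidermis. Itgb4 made up 1.81% to 4.37% in dermis and 11.6% to 20.0% in epidermis, and Itgb6 0.0712% to 1.39% and 6.86% to 11.5%. Itgb5 was the largest share in epidermis, at 43.9% to 60.8%. The sum of all 8 chains was 281 to 379 TPM in dermis and 68.1 to 117 TPM in epidermis, so Itgb4 gained share while its own level did not pass a test. A share depends on all chains of its class, so it is given as a description.

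The cytoplasmic ends of these beta chains differ, which is why the last 150 coding bases of 4 of them are shown, each from the longest complete coding sequence of the gene in GENCODE M21 (mm10), 5′ to 3′ with the stop codon at the end. Capitals mark the in-frame NPxY codon motif, asparagine, proline, any residue and tyrosine, a docking motif for adaptors such as talin. Docking sites that lack the proline are not marked, so the capitals do not count every adaptor site:
Itgb1: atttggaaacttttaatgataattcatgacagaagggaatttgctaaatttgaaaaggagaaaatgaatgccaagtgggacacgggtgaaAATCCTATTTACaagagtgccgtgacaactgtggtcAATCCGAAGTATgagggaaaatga
Itgb6: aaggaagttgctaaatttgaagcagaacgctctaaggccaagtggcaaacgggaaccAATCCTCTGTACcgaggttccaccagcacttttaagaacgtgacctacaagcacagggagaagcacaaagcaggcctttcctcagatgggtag
Itgb4: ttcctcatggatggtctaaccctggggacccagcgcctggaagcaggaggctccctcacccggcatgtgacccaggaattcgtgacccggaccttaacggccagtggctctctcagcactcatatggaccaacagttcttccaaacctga
Itgb8: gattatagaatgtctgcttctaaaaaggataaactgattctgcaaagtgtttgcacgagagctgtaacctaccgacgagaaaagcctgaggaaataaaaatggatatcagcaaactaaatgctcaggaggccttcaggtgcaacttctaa
The motif was found 2 times in the Itgb1 window, 1 time in that of Itgb6 and 0 times in those of Itgb4 and Itgb8. In all, 0.372% of 21494 protein-coding genes hold it in the last 150 coding bases. The Itgb4 coding sequence, at 5457 bases, was longer than that of Itgb1, at 2397, and its long tail binds plectin and intermediate filaments in place of actin.

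Of the 15 alpha chains tested, 5 did not pass: the laminin receptor chains Itga3, Itga6 and Itga7, and Itga2b and Itgae. Itga6, the partner of Itgb4 and Itgb1, stood at 54.5, 50.1 and 39.0 TPM in dermis and 55.2, 45.2 and 64.5 TPM in epidermis. Those ranges overlapped in part, with a log2 fold change of 0.19 and a 95% confidence interval from -0.33 to 0.72 (adjusted p = 0.48). Under median-of-ratios scaling it stood at 0.49 (adjusted p = 0.058). Itga3, the other main keratinocyte laminin receptor, stood at 2.42, 6.0 and 1.74 TPM in dermis and 5.37, 6.38 and 10.0 TPM in epidermis, a log2 fold change of 0.99 ± 0.39 (adjusted p = 0.066). Wound dermis replicate 2, the dermis library with the most keratinocyte transcripts, overlapped with epidermis, and Itga3 passed without it (1.39, adjusted p = 0.0098). It also passed after quantile normalization (1.63, adjusted p = 0.0070) and with median-of-ratios factors (1.23, adjusted p = 0.024). Itga7, best known from muscle, stood at 5.17 to 7.07 TPM in dermis and 3.32 to 9.04 TPM in epidermis (log2 fold change -0.15, adjusted p = 0.71), and its sign turned under both other scalings, to 0.11 and 0.50.

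Of the 4 collagen receptor chains, Itga11 and Itga1 were lower in epidermis and the other two were not tested. Itga11, the fibroblast receptor for fibrillar collagen, stood at 32.4, 21.7 and 35.8 TPM in dermis and 0.06, 0 and 0.20 TPM in epidermis. It fell by 4.81 ± 0.24 (adjusted p = 1.5e-05), the largest change of any alpha chain in this fit. Itga1, a collagen receptor of stromal and vascular cells, fell by 3.02 (adjusted p = 8.0e-05) from 6.58 to 12.4 TPM in dermis to 0.20 to 0.25 TPM in epidermis. Itga2, the collagen receptor of keratinocytes and platelets, did not exceed 0.78 TPM in any library, and Itga10, the receptor of cartilage, did not exceed 0.36 TPM, so neither was tested. Itga10 shares 33.5% of its exon bases with a predicted gene on the same strand, which makes its level uncertain.

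Receptors for fibronectin and other ligands that carry the RGD site split by level. Itgav, which pairs with Itgb1, Itgb3, Itgb5, Itgb6 and Itgb8, was the most abundant member in all 6 libraries, at 234, 252 and 345 TPM in dermis and 158, 144 and 161 TPM in epidermis. It fell by 0.82 ± 0.22 (adjusted p = 0.015), a call that median-of-ratios scaling did not keep (-0.53, adjusted p = 0.053). It made up 57.8% to 67.3% of the alpha-chain TPM in dermis and 62.5% to 68.0% in epidermis, and these ranges overlapped. Itga5, the classical fibronectin receptor chain, stood at 30.7, 24.5 and 28.7 TPM in dermis and 1.55, 1.44 and 2.94 TPM in epidermis (log2 fold change -3.31, adjusted p = 6.1e-05). Itga8, of contractile mesenchymal cells, fell by 1.99 (adjusted p = 7.2e-05) from 2.86 to 3.33 TPM to at most 0.05 TPM. Itga2b, the platelet partner of Itgb3, stood at 3.25, 5.30 and 13.7 TPM in dermis and 2.65, 2.17 and 5.67 TPM in epidermis and did not pass (-0.78, adjusted p = 0.22). In epidermis Itgb3 lay at or below 0.07 TPM, and the 5 platelet markers summed to 0.23 to 0.56 TPM, against 109 to 205 TPM in dermis. Pf4 gave most of the dermis sum, at 108 to 205 TPM, and was the 1 platelet marker tested (-6.89, adjusted p = 1.1e-05). In dermis Ppbp stood at 0.44 to 0.59 TPM, Gp5 at 0 to 0.74 TPM, Gp9 at 0 to 0.14 TPM and Gp1ba at 0 to 0.09 TPM. In epidermis Gp1ba stood at 0.12 to 0.23 TPM, Pf4 at 0 to 0.40 TPM, and Ppbp, Gp9 and Gp5 were listed at 0. The part of platelets in the Itga2b level was not tested.

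Of the 6 alpha chains mainly of leukocytes, or shared with them (Itgam, Itgal, Itga4, Itgax, Itgae and Itgad), the first 4 were lower in epidermis. Itgam, the complement receptor chain of myeloid cells, fell by 1.91 (adjusted p = 0.0015), Itgal of lymphocytes by 1.67 (adjusted p = 0.0026), and Itga4, which binds Vcam1 and fibronectin, by 2.0 (adjusted p = 0.0001). Itgam shares 68.7% of its exon bases with a predicted gene on the same strand, so its reads could have been split between them. Itga9, a tenascin receptor chain that is not counted in these 6, fell by 2.11 (limma adjusted p = 0.0038). Itgax, of dendritic cells and macrophages, stood at 3.57, 3.21 and 5.22 TPM in dermis and 1.72, 1.13 and 2.41 TPM in epidermis (-0.87, adjusted p = 0.024). Its call was lost without wound dermis replicate 3 (adjusted p = 0.071), wound epidermis replicate 1 (0.069) or wound epidermis replicate 2 (0.074), without the filter (0.064) and under quantile normalization (-0.13, adjusted p = 0.67).

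Itgae, the chain by which resident T cells bind E-cadherin, stood at 1.28 to 2.08 TPM in dermis and 0.83 to 1.59 TPM in epidermis and did not pass (-0.39, adjusted p = 0.17; 0.27 under quantile normalization). Itgad reached at most 1.25 TPM and was not tested. The 6 macrophage markers summed to 657 to 1136 TPM in dermis and 56.5 to 75.5 TPM in epidermis, and all 6 were lower there. The 5 T cell markers summed to 12.9 to 24.6 TPM in dermis and 9.05 to 25.9 TPM in epidermis, with 0 of 4 tested called. The 5 neutrophil markers summed to 17.9 to 26.6 TPM in dermis and 27.2 to 32.0 TPM in epidermis. Of these, Cxcr2 was higher in epidermis (1.30, adjusted p = 0.0014), Csf3r was lower (-3.10, adjusted p = 0.0001), Mpo was not tested, and Ly6g and Elane were listed at 0 in every library. The part of each cell type in the leukocyte chains was not tested.

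**Figure D2:**
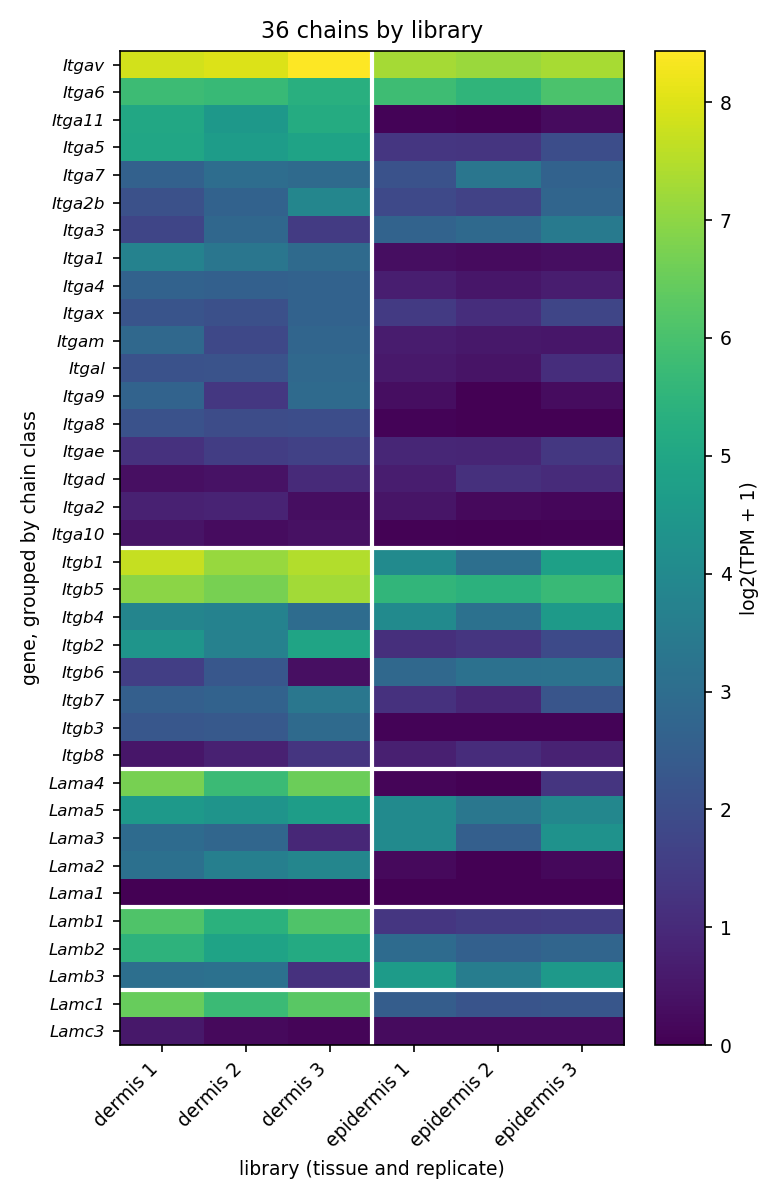
Level of 36 of the 37 members in each of the 6 libraries as log2(TPM + 1), genes grouped by chain class and ordered by mean level within it. Itgav is the brightest row in both tissues, Itgb1, Lama4, Lamb1 and Lamc1 are brighter in dermis than in epidermis, and Lama3 and Lamb3 are darkest in wound dermis replicate 3.

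The laminin chains did not all change in the same direction. The epithelial chains Lama3 and Lamb3 had higher means in epidermis, and Lamb3 passed. Lamb3 stood at 7.39, 7.95 and 1.29 TPM in dermis and 24.0, 10.8 and 22.4 TPM in epidermis, with no overlap, and rose by 1.78 ± 0.57 (adjusted p = 0.033). Lama3 stood at 6.65, 5.93 and 0.91 TPM in dermis and 15.3, 4.87 and 18.6 TPM in epidermis (1.40 ± 0.65, adjusted p = 0.11). Wound epidermis replicate 2 was the lowest epidermis library and wound dermis replicate 3 the lowest dermis library for both genes.

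Leaving out either of these 2 libraries moved the values of Lama3 and Lamb3. Without wound epidermis replicate 2, Lama3 stood at 1.94 (adjusted p = 0.0462) and Lamb3 at 2.12. Without wound dermis replicate 3 they stood at 0.76 and 1.14, and Lamb3 had an adjusted p of 0.0507. Leaving out wound epidermis replicate 1 or 3 put the adjusted p of Lamb3 at 0.097 or 0.085, and dropping the filter put it at 0.072, while Lama3 passed under quantile normalization (1.95, adjusted p = 0.023). The ratio of Lamb3 to Lama3 was 1.11, 1.34 and 1.42 in dermis and 1.58, 2.22 and 1.2 in epidermis, so it overlapped between the tissues.

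The chains of the dermal, vascular and muscle laminins were far lower in epidermis. Lama4, the alpha chain of vessel walls, stood at 103, 52.4 and 93.0 TPM in dermis and 0.08, 0.01 and 1.49 TPM in epidermis, and fell by 5.85 ± 0.42 (adjusted p = 4.8e-05), the largest change of all members. Lama2, the chain of muscle and nerve basement membranes, fell by 3.41 (adjusted p = 4.2e-05) to at most 0.15 TPM. Lamb1 fell by 4.42 (adjusted p = 2.1e-05), from 40.9 to 68.9 TPM in dermis to 1.55 to 1.92 TPM in epidermis. Lamb2 fell by 2.40 (adjusted p = 0.00016), from 28.8 to 43.2 TPM to 5.05 to 6.80 TPM. The 6 endothelial markers summed to 225 to 353 TPM in dermis and 3.15 to 9.57 TPM in epidermis, and all 6 were lower there. Their part in the level of Lama4 was not tested.

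Lamc1 is the gamma chain of most laminins, with laminin 511 and 521 among them. It stood at 87.3, 52.9 and 77.1 TPM in dermis and 4.65, 3.62 and 3.79 TPM in epidermis. Lamc1 fell by 3.85 ± 0.24 (limma adjusted p = 2.8e-05). The gene lies on the minus strand of mm10 chromosome 1 from 153218922 to 153332786.

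Lama5, the alpha chain of laminin 511 and 521 of epidermis and vessels, was the least changed of the lower laminin chains. It stood at 22.9, 19.7 and 24.7 TPM in dermis and 15.4, 9.23 and 13.9 TPM in epidermis and fell by 0.78 ± 0.24 (adjusted p = 0.027). Its call was lost with both other scalings (median-of-ratios -0.50, adjusted p = 0.064; quantile -0.37, adjusted p = 0.16) and without wound dermis replicate 1 (adjusted p = 0.074) or replicate 3 (0.084). Lama1, of embryonic basement membranes, and Lamc3 did not exceed 0.03 and 0.45 TPM.

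Within the laminin alpha and beta classes the leading chain differed between the tissues. Lama4 made up 58.5% to 73.4% of the alpha-chain TPM in dermis, while Lama3 and Lama5 together made up nearly all of it in epidermis, with Lama3 at 34.5% to 54.5% and Lama5 at 40.7% to 65.4%. Lamb3 made up 61.3% to 74.5% of the beta chains in epidermis and 1.24% to 10.3% in dermis.

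**Figure D3:**
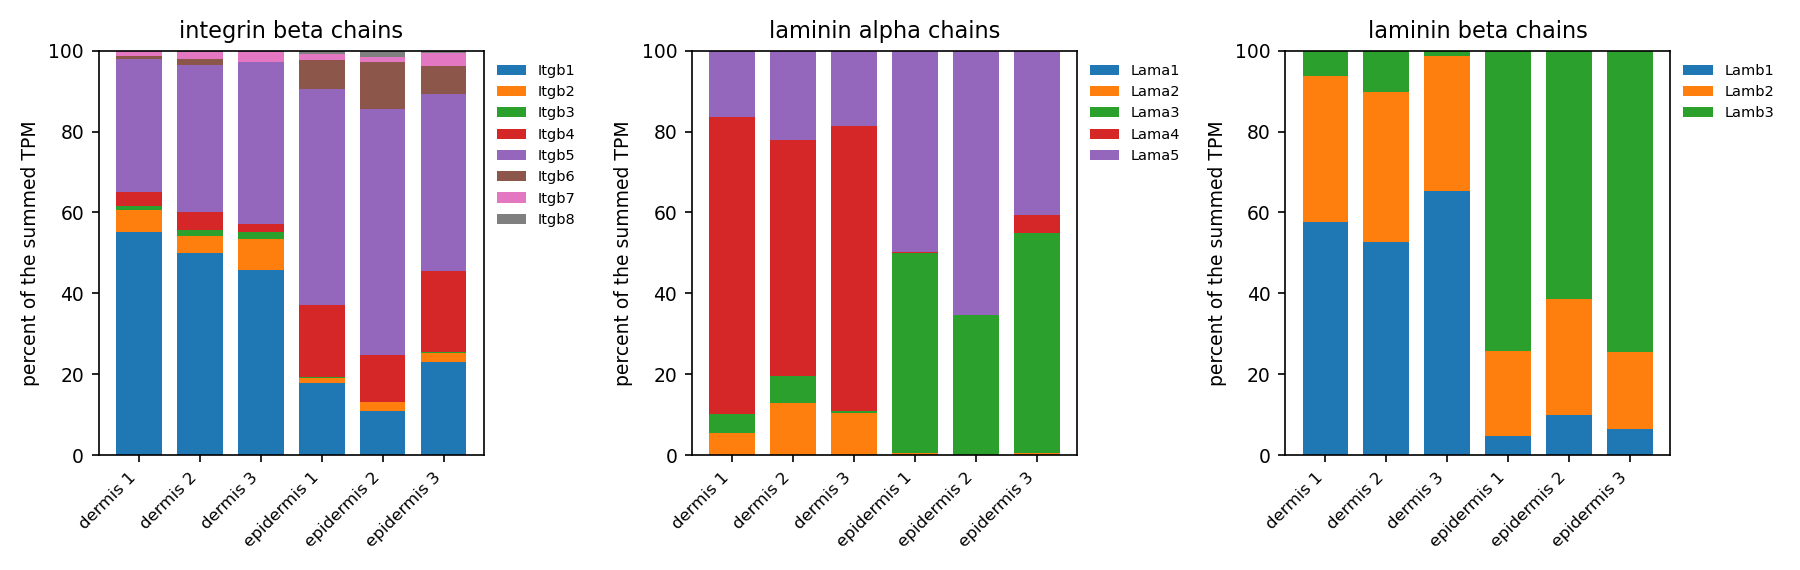
Share of each chain in the summed TPM of its class (percent, stacked bars) for integrin beta, laminin alpha and laminin beta chains in the 3 dermis and 3 epidermis libraries. Itgb1 gives 45.8% to 55.2% of the beta-integrin sum in dermis and 11% to 23.0% in epidermis, and Lamb3 gives 1.24% to 10.3% of the laminin beta sum in dermis and 61.3% to 74.5% in epidermis.

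Wound dermis libraries held transcripts of Lama3, Lamb3, Itgb4 and Itga6 at a higher percentage of the epidermis level than most keratinocyte markers. As a percentage of the epidermis mean, dermis replicates 1, 2 and 3 held Krt10, a suprabasal keratin, at 0.899%, 23.1% and 0.545%. They held the basal keratins Krt14 at 17.2%, 26.4% and 1.86%, Krt5 at 15.0%, 45.2% and 3.43%, and Krt15 at 0.587%, 39.1% and 2%. They held Trp63, the basal transcription factor, at 13.8%, 39.6% and 3.59%. Col17a1, the collagen of the hemidesmosome, stood at 16.2%, 44.8% and 3.03%, close to Krt5 and Trp63 in each library.

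The epithelial laminin chains lay higher in dermis replicates 1 and 3, with Lama3 at 51.5%, 46.0% and 7.05% in replicates 1, 2 and 3 and Lamb3 at 38.8%, 41.7% and 6.76%. Itgb4 stood at 85.3%, 78.9% and 43.9% and Itga6 at 99.0%, 91.2% and 71.0%. Itgb6 stood at 26.8%, 53.2% and 3.68%. In replicate 2 Lama3, Lamb3 and Itgb6 lay near the values of Krt5, Trp63 and Col17a1, and in replicates 1 and 3 Lama3, Lamb3, Itgb4 and Itga6 lay above all of these genes. Itga6 also pairs with Itgb1, which was 11.4 to 25.4 times as abundant as Itgb4 in dermis. The parts of keratinocytes and of other cells in the dermis levels were not tested, and these percentages were set side by side after they were seen.

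**Figure D4:**
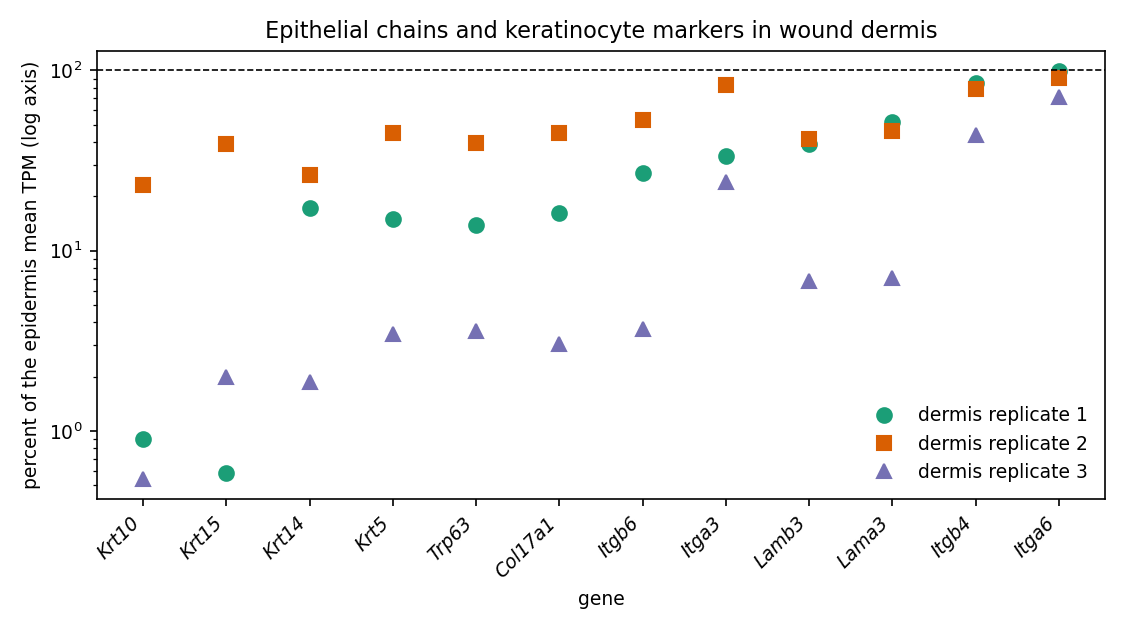
Level in each wound dermis library as a percentage of the mean of the 3 epidermis libraries (log axis), for 6 keratinocyte genes (Krt10 to Col17a1) and 6 integrin and laminin chains. The dashed line marks 100%; Itga6 lies between 71.0% and 99.0%, and replicate 3 (triangles) lies lowest for every gene but Krt15.

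Known complexes were then read from the scarcest of their chains, as a description of RNA that shows no protein or assembly. Of 24 known integrin pairs, 19 had both chains at 1 TPM or more in all 3 dermis libraries and 9 in all 3 epidermis libraries. The pair of Itgav and Itgb6 was the 1 pair that reached this in epidermis and not in dermis. In dermis Itgb6 stood at 1.97, 3.91 and 0.27 TPM in replicates 1, 2 and 3, so replicate 3 alone kept the pair from the count. Over all genes of the table, 15958 to 16257 reached 1 TPM in a dermis library and 13117 to 14012 in an epidermis library. In epidermis the scarcest chain of Itgav with Itgb5 stood at 41.4 to 51.4 TPM, that of Itga6 with Itgb4 at 7.93 to 23.4 TPM, and that of Itga6 with Itgb1 at 7.49 to 26.9 TPM. Of 13 laminin trimers read in this way, 6 had all chains at 1 TPM in every dermis library and 4 in every epidermis library. Trimers with Lamb3 are not among the 13. The 2 trimers that reached this in epidermis and not in dermis were laminin 311 and 321. Lama3 at 0.91 TPM in dermis replicate 3 kept both from the dermis count. In epidermis, laminin 321 and 521 had the same scarcest chain, Lamc1, at 3.62 to 4.65 TPM. In dermis, laminin 411 had the highest floor, at 40.9 to 68.9 TPM.

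The intracellular partners of integrins were mostly lower in epidermis, as was Itgb1. Of 21 such genes listed, which include activators, adaptors to actin and other regulators, 19 were lower and 2 higher in epidermis, with a median of -2.11. Over all tested genes 39.3% were lower and 17.0% higher, with a median of -0.42, and the lists below stand beside the same shares. Under quantile normalization 17 of the 21 were lower, and Bcar1 (-0.27, limma adjusted p = 0.23) and Src (-0.37, adjusted p = 0.19) were not called. Lower genes included the kindlin Fermt2 (-5.09, adjusted p = 2.7e-05), the tensin Tns1 (-4.28, adjusted p = 1.6e-05), the focal adhesion kinase Ptk2 (-2.71, adjusted p = 3.7e-05) and the talin Tln1 (-2.58, adjusted p = 7.0e-05). The higher genes were the epithelial kindlin Fermt1, from 0.81 to 5.50 TPM in dermis to 9.66 to 19.7 TPM in epidermis (2.29, adjusted p = 0.0064), and the parvin Parvb (1.22, adjusted p = 0.0050).

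Of 4 other hemidesmosome genes, Col17a1, a collagen that spans the membrane, was higher (2.61, adjusted p = 0.026), and Plec, the plectin that links Itgb4 to keratins, was lower (-1.18, adjusted p = 0.040). Dst (-1.0, adjusted p = 0.098) and the tetraspanin Cd151 (-0.93, adjusted p = 0.053) did not pass, but Dst passed without wound epidermis replicate 1 (-1.39, adjusted p = 0.037) and Cd151 without wound epidermis replicate 3 (-1.25, adjusted p = 0.013). Col17a1 was not called without the filter, nor without wound dermis replicate 1, wound epidermis replicate 1 or wound epidermis replicate 3, and Plec was not called without the filter, under median-of-ratios scaling or without any 1 of the 3 dermis libraries.

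Of 19 basement membrane partners of laminin 13 were tested, of which 10 were lower and 1 higher. Lower genes included Col4a1 (-6.25, adjusted p = 1.3e-05), the nidogens Nid1 (-5.91, adjusted p = 1.1e-05) and Nid2 (-4.87, adjusted p = 2.4e-05), which join laminin to type IV collagen, and Col4a2 (-5.52, adjusted p = 2.0e-05). Fras1, of the epithelial basement membrane, rose by 1.71 (adjusted p = 0.013) but was not called without wound dermis replicate 1. The laminin receptors Dag1 (-0.38, adjusted p = 0.13) and Bcam (0.44, adjusted p = 0.31) did not pass, though Bcam did after quantile normalization (1.02, adjusted p = 0.024).

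All 12 tested matrix ligands of integrins, of 15 listed, were lower in epidermis, with a median of -5.35. They included fibronectin, Fn1 (-5.59, adjusted p = 1.1e-05), fibrillin, Fbn1 (-5.54, adjusted p = 1.3e-05), the collagen chain Col1a2 (-10.32, adjusted p = 3.0e-05), and periostin, Postn (-7.29, adjusted p = 3.2e-05). Fga, Fgb and Fgg, the fibrinogen chains, were listed at 0 in all 6 libraries. All 7 listed genes of the latent TGF-beta complex were lower, including Nrros (-4.72, adjusted p = 3.4e-05), Ltbp1 (-2.84, adjusted p = 0.00011), Tgfb1 (-2.0, adjusted p = 0.00015) and Tgfb3 (-4.45, adjusted p = 0.00017). Under quantile normalization 6 of the 7 were called lower, and Lrrc32 was not called (-0.36, adjusted p = 0.21).

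Of 9 surface ligands of leukocyte integrins 8 were tested, 6 lower and 2 higher. Cdh1, E-cadherin and the ligand of Itgae, rose by 3.14 (adjusted p = 0.0033), and F11r, a junction protein, by 1.25 (adjusted p = 0.014). Vcam1, the ligand of Itga4 (-5.06, adjusted p = 1.1e-05), Icam2 (-4.03, adjusted p = 1.7e-05), Jam2 (-3.63, adjusted p = 2.0e-05) and Jam3 (-3.54, adjusted p = 2.6e-05) were lower.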

How the data were processed

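Whole wound dermis and epidermis of mouse, 3 libraries each, were profiled with SMART-seq2 RNA sequencing. The deposited values are TPM per gene as the authors computed them. Bowtie 1.0.0, RSEM 1.2.31 and the builds mm10 and Rnor_6.0 are named in the submitters' processing notes. TPM keeps no read number, so the depth behind a value is unknown, and no source states whether the counting used strand. Of 49548 gene IDs, 49289 were paired with a symbol from a list of gene names. Gene types and positions came from GENCODE M21. The 12 rat libraries were not used here.

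Genes that reached 1 TPM in 3 or more of the 6 libraries were tested on log2(TPM + 1) with limma 3.58.1 (R 4.3.3, mean-variance trend, two-sided), with Benjamini-Hochberg adjustment over 15982 genes and a threshold of 0.05. The pseudocount of 1 makes the change of low genes look smaller than it is. The test script was tested on simulated data. The members are named, except 1 that is counted but not reported here, with up to 4 genes of the smallest adjusted p per direction in each list and those that show a list to be mixed. Members, lists and complexes were chosen with earlier results of these data known. Alternatives were a pseudocount of 0.1 TPM, no filter, a filter of 5 TPM, median-of-ratios scaling, quantile normalization, a replicate block and leaving out each library. The labels do not say that equal replicate numbers pair the tissues.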

Additional observations from a re-analysis of the deposited data

How the results depend on the processing

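Over 12 alternative settings, 21 of the 31 tested members kept their direction and their side of the threshold in every setting that tested them. The count of higher members was 2 as reported, 0 without the filter (30354 genes tested), 4 under quantile normalization, and 0 to 3 when 1 library was left out. The count of lower members was 21 as reported, 14 with a filter of 5 TPM, which tested 23 members, and 18 to 21 when 1 library was left out. The sign of Itga7 turned to 0.11 under median-of-ratios scaling, 0.50 under quantile normalization and, over the libraries left out in turn, ranged from -0.47 to 0.14 (without wound epidermis replicate 1), and that of Itgae to 0.27 under quantile normalization; the cause was not tested. With a pseudocount of 0.1 TPM the log2 fold changes of 9 lower members grew by over 1.5 times, such as Itga11 at -7.44 and Lama2 at -5.84, and all 31 stayed on their side of the threshold.

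Deviations from the group means correlated between libraries of the same replicate number at r = -0.14, 0.09 and 0.19 across genes. For unequal numbers r ranged from -0.2 to 0.12, so the value for replicate 3 was the highest and that for replicate 1 lay among the low ones. With the replicate block, 8404 genes were called against 8996 without it, and 2 members were higher and 21 lower. Among the hemidesmosome partners, the block ended the call of Plec (-1.18, limma adjusted p = 0.068) and gave one to Cd151 (-0.93, adjusted p = 0.032). The unknown depth and 3 libraries a group limit what can be said of genes near 1 TPM, among them the 6 untested members.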
